A study of Homo sapiens with 6 samples.

Results

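The RBM genes are named for the RNA-binding motif in the proteins they encode. Transcripts of 46 of them, among 18132 genes in all, were followed in MDA-MB-231. This established human line comes from a breast cancer without hormone receptors or HER2 and has mesenchymal features. Members were the genes whose symbol starts with RBM followed by a digit, S or X and that a probe set of the array names alone. The level over all 6 arrays chose the probe set that stands for each gene, so levels are given as descriptions and were not tested. No member was chosen by its difference between the groups, but the SAHA arrays took part in choosing its probe set. Treatment lasted 8 h, with SAHA at 5 µM or with DMSO, and each group has 3 arrays. SAHA, also called vorinostat, inhibits histone deacetylases, and the question is which transcripts differ between the groups. The labels do not say that the 3 samples of a group were separate cultures, so p-values measure the spread between these samples, which may be technical. All cells were of 1 line, and the labels give no further genotype.

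An RNA recognition motif is a small fold whose sheet surface holds a few bases of single-stranded RNA. Most RBM proteins carry such a motif, yet they are not 1 pathway. Some are parts of the spliceosome, which removes introns, and others choose splice sites in developing tissues. Others mark messages for methylation, export or decay, or act in the nucleolus, where ribosomes are made. The label fits the members by name and not by a shared task, and RBM14-RBM4 is a read-through transcript of a pair of neighbouring genes.

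Arrays of one group were nearly alike, with Pearson's r across genes between 0.997 and 0.998, against 0.967 to 0.968 between groups. VIM (13.99) and CD44 (11.95) were high and PGR (3.33) and CDH1 (4.18) low, on a log2 scale that ran from 2.33 to 14.33, as known for this line. Of the other genes listed as markers of the line, AXL was at 12.42 and SPARC at 5.86. Of the others listed as absent or low, ESR1 was at 5.99, ERBB2, which encodes HER2, at 7.39 and EPCAM at 8.21. SPARC lay at percentile 40.0 of all genes, ERBB2 at 56.6 and EPCAM at 65.8, so these genes did not match the lists. For ACTB, the log2 value at the 3' end less that at the 5' end, which reflects RNA integrity and amplification, averaged 0.89 ± 0.16 with DMSO and 0.61 ± 0.06 with SAHA (SD, n = 3), without overlap. The same difference for GAPDH averaged 0.03 ± 0.02 with DMSO and 0.06 ± 0.02 with SAHA, also without overlap but higher with SAHA. The ACTB difference moved with the groups and so stands beside every result here. Its part in them was not tested except as a covariate. In bulk RNA, fewer cells with a transcript and less of it per cell cannot be told apart.

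Most RBM transcripts were lower after SAHA. Of the 46 genes, 31 fell, 4 rose and 11 did not pass at an adjusted p of 0.05 in limma's test. Over all genes 48.3% passed, 23.8% lower and 24.6% higher. The median log2 fold change of the members was -0.41, against -0.01 over all genes. The changes of the lower members were small, from -0.21 to -1.08 on the log2 scale, and 2 members fell by at least 2-fold, as did 4.47% of all genes. Another 2 rose by at least 2-fold, as did 5.93% of all genes. All 3 SAHA values lay below all 3 DMSO values in 32 members (27.5% of all genes) and above them in 4 (28.0% of all genes). The rises were confined, among the members called, to genes grouped here as regulators of splicing and mRNA fate, whose median was 0.17. The role groups were drawn with earlier results of these data known, so this is only a description.

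Calls depend on how bright a gene is, so the members were also set beside genes of like level. Of the 28 members with a mean log2 value of at least 8, 22 fell and 2 rose, where 40.8% of all such genes were lower and 35.0% higher. Their median was -0.51, against -0.04 over all 6642 such genes. Of the 10 members under a mean of 5, 2 fell and 2 rose, where 5.08% of such genes were lower and 6.79% higher. The remaining 8 lay between these levels, and 7 of them fell and 0 rose, where 21.4% of all 6218 such genes were lower and 28.5% higher. A fold change is understated for members near the floor of the scale.

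**Figure D1:**
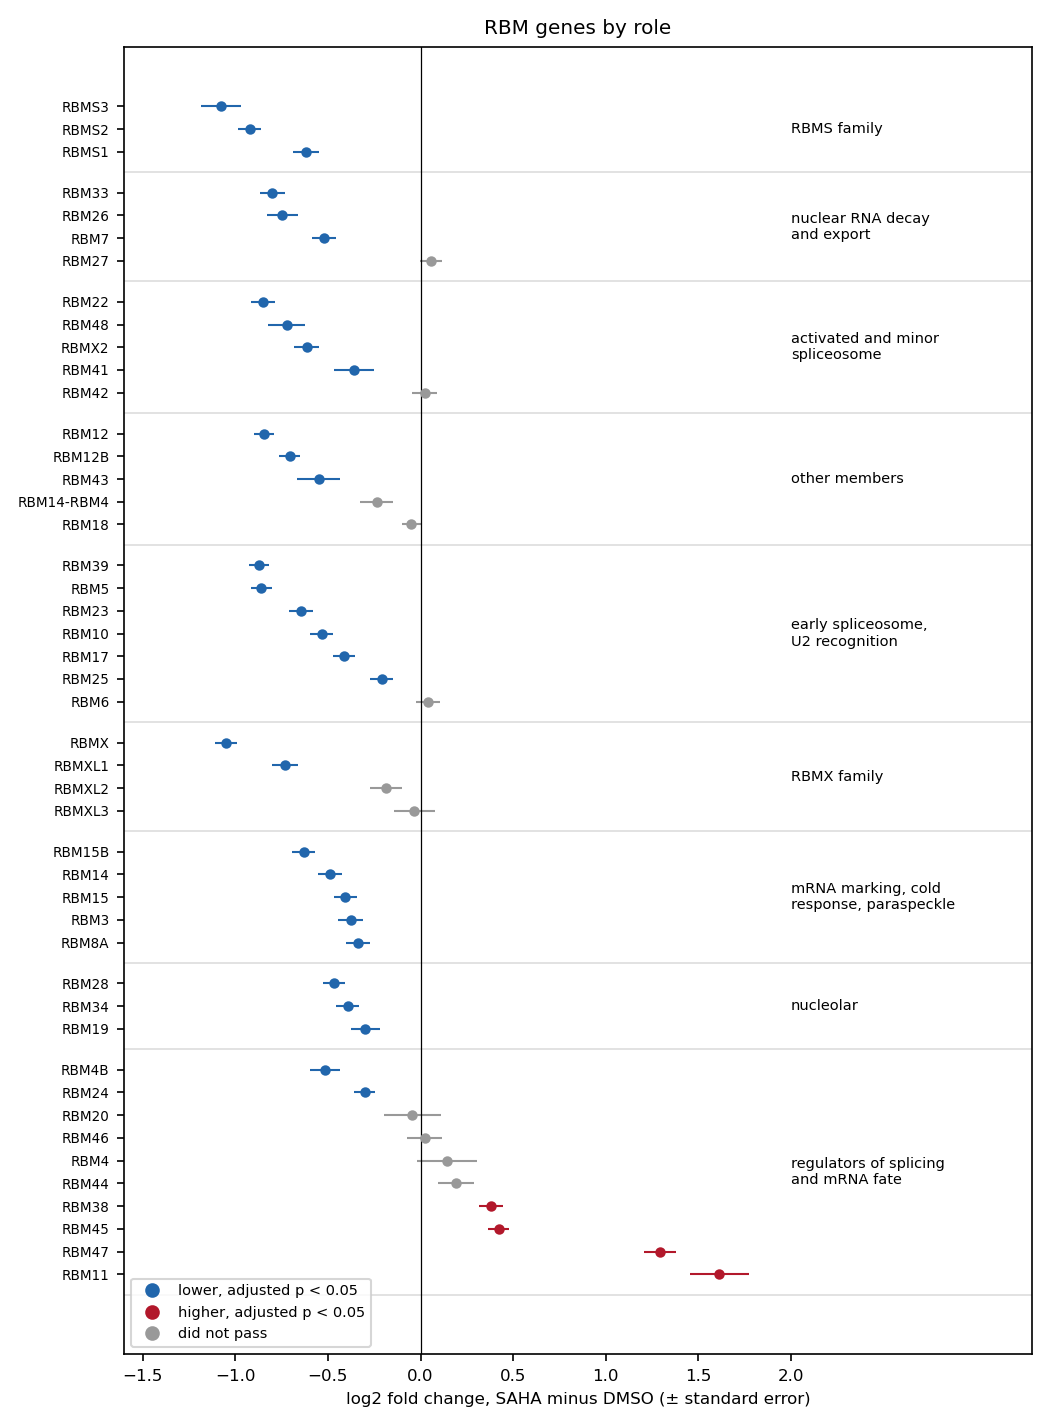
Log2 fold change of each of the 46 RBM genes, SAHA minus DMSO, with limma's standard error (3 arrays per group), by role group. Blue genes were lower, red genes higher and grey genes did not pass at an adjusted p of 0.05. The 31 falls lie between -1.08 and -0.21, and the 4 rises all sit in the group of regulators at the bottom. The role groups were drawn with earlier results of these data known.

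The promoters of the members that moved by at least 2-fold, and of the neighbours RBM5 and RBM6, are shown to let their sequence be read beside the changes. Each is the stretch of 250 bases before the RefSeq start (GRCh38.p14), 5′ to 3′ on the gene's strand. RBM11 lies at chr21:14215907-14216156 on the plus strand, RBM47 at chr4:40630595-40630844 on the minus strand, RBMX at chrX:136880726-136880975 on the minus strand and RBMS3 at chr3:29280821-29281070 on the plus strand. RBM5 lies at chr3:50088669-50088918 on the plus strand and RBM6 at chr3:49939900-49940149 on the plus strand. Of the 4 starts listed for RBM47 the most upstream is shown, and which start these cells use is not measured. Capitals mark the letters searched on both strands, namely the GC box GGGCGG, the CCAAT box CCAAT, the ETS core CCGGAAG, the palindromic NRF1 site, the E-box CACGTG and the TATA box TATAAA, and matches were allowed to overlap.
RBM11: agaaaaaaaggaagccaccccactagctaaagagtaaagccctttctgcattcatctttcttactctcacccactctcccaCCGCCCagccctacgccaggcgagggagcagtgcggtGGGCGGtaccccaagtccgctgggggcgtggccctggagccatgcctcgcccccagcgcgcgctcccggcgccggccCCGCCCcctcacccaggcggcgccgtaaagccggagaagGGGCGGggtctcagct
RBM47: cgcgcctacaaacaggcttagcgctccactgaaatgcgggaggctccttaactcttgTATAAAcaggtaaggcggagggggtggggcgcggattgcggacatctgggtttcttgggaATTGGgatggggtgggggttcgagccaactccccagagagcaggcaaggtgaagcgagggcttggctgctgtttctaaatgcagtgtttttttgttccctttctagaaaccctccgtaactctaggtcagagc
RBMX: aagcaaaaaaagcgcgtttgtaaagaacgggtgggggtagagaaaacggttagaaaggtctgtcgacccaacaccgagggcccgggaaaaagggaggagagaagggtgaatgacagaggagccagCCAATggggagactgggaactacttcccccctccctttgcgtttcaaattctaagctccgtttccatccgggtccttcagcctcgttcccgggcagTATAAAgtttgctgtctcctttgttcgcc
RBMS3: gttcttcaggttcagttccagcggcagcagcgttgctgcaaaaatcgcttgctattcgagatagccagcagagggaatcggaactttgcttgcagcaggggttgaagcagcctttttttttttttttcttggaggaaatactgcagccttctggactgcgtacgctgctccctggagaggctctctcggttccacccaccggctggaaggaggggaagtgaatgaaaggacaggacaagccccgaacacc
RBM5: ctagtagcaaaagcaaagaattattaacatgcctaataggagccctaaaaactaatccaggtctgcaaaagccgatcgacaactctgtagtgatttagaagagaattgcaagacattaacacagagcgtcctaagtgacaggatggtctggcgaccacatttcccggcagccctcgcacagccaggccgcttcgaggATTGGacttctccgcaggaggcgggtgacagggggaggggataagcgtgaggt
RBM6: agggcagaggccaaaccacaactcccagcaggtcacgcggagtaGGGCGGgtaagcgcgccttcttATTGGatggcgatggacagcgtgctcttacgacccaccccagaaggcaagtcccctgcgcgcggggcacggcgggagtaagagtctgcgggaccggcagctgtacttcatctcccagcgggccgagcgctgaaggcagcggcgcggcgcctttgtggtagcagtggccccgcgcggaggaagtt
The RBM11 stretch held 4 GC boxes, and those of RBMX, which fell, and RBM47, which rose, each held 1 CCAAT box and 1 TATA box. RBM5 held 1 CCAAT box, and RBM6 held 1 GC box and 1 CCAAT box. RBMS3 held none of the 6 motifs, which says only that these letters are not in this window.

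Start sites of 42 of the 46 members were matched, in 47 windows. Shares are given for the members' windows, then for the 20403 windows of the 14425 measured genes that were matched, then for all 35116 windows of that length. The GC box was in 55.3%, 54.6% and 42.6%, so the members' share was near that of the measured genes. The CCAAT box was in 48.9%, 32.8% and 32.0%. The ETS core was in 17.0%, 10.8% and 8.52%, and the NRF1 site in 4.26%, 1.33% and 1.03%, or 2 member windows. The E-box was in 6.38%, 7.38% and 6.34%, and the TATA box in 8.51%, 8.67% and 10.7%. The median count of CG steps was 18, 17 and 11. RBM14 and RBM14-RBM4 share 1 window, so these shares count it for both. These are descriptions of sequence, and no factor was measured.

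RBM11 and RBM47 rose by at least 2-fold. RBM11 is a splicing regulator best known from brain and testis. On the log2 scale RBM11 was at 3.32, 3.96 and 3.81 with DMSO and at 5.30, 5.19 and 5.43 with SAHA. The groups did not overlap, although all DMSO values lay near the floor of the scale. The change was 1.61 ± 0.16 (SE, adjusted p = 7.15e-05), or 3.06-fold. RBM47, which binds mRNA and is a cofactor of the cytidine deaminase APOBEC1, was at 3.86, 3.75 and 3.81 in DMSO and at 5.22, 4.92 and 5.15 in SAHA arrays. All SAHA values were above all DMSO values, by 1.29 ± 0.09 in the mean (2.45-fold, adjusted p = 8.99e-06). Its DMSO values too lay near the floor, so the folds of both genes are imprecise and were not ranked. With the second brightest probe set the changes were 1.12 for RBM11 and 1.34 for RBM47. Another RBM47 probe set, brighter than the chosen one in the DMSO arrays, gave 0.03 ± 0.11 and did not pass. A1CF, its relative and the other known cofactor of APOBEC1, fell by 0.15 ± 0.05 (adjusted p = 0.0448), though neither of its probe sets passed in the test over probe sets.

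RBM38 and RBM45 also rose, by less. RBM38, a target of p53 that stabilizes the mRNA of the cell cycle inhibitor p21, was at 9.02, 8.93 and 9.002 in DMSO and at 9.46, 9.30 and 9.33 in SAHA arrays. The groups were apart, with a change of 0.38 ± 0.06 (adjusted p = 0.00152). RBM45, known from neural tissue, was at 8.36, 8.45 and 8.47 in DMSO and at 8.89, 8.83 and 8.83 in SAHA arrays, a change of 0.42 ± 0.06 (adjusted p = 0.000405). Both were well above the floor in both groups.

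Of the 10 regulators, 4 rose and 2 fell. RBM24, a relative of RBM38 that acts in muscle, fell by 0.30 ± 0.05 (adjusted p = 0.00218), a call lost when centred on poly-A spike-ins (-0.14, adjusted p = 0.355). RBM4B, a splicing and translation regulator, fell by 0.52 ± 0.08 (adjusted p = 0.00103), a call lost with the ACTB difference as a covariate (adjusted p = 0.0615). The other 4 did not pass. RBM20, the titin splicing factor of heart muscle, was at -0.04 ± 0.15, RBM44 at 0.19 ± 0.10 and RBM46, of germ cells, at 0.02 ± 0.10, all with means under 5. RBM44 did pass without the third DMSO array (0.28, adjusted p = 0.0342). RBM4 was at 0.14 ± 0.16 in a probe set whose first DMSO value, 6.30, lay below its other 5 values of 6.84 to 7.001.

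**Figure D2:**
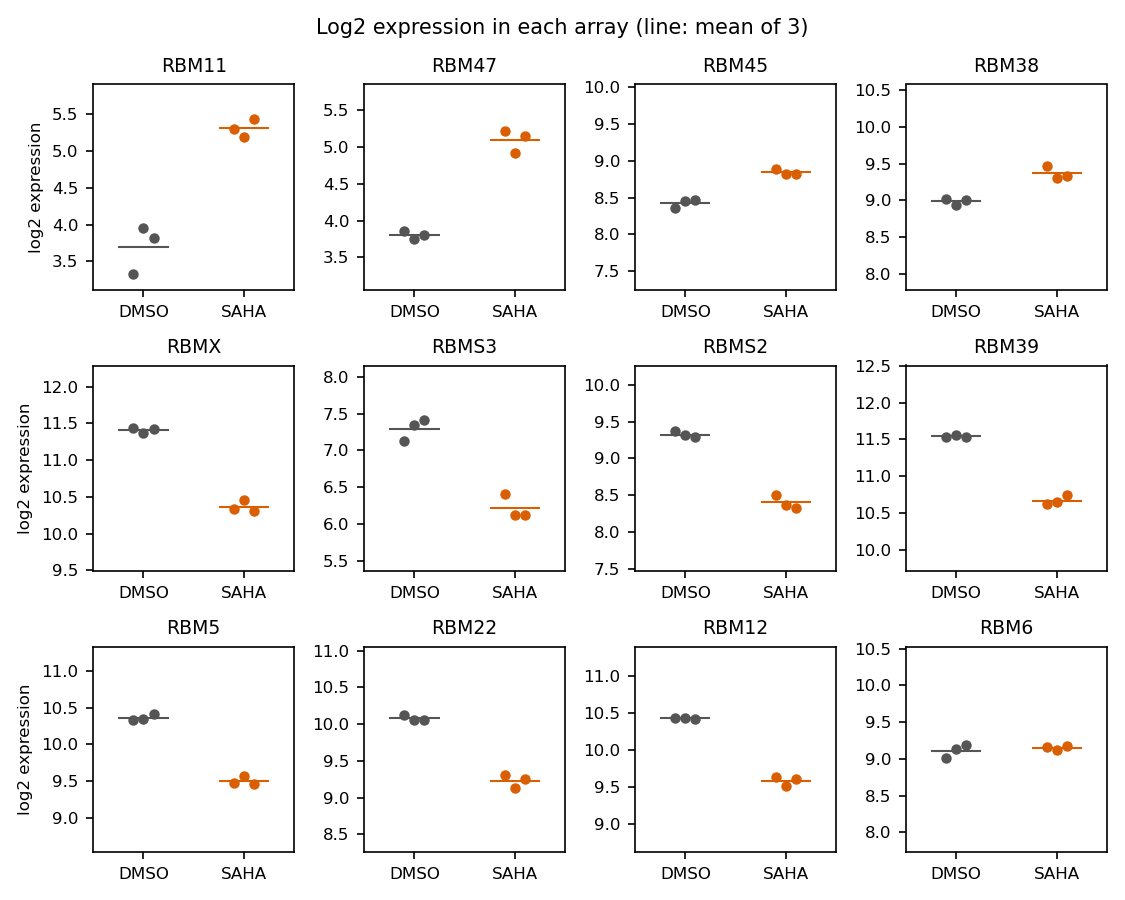
Log2 expression of 12 RBM genes in each of the 6 arrays, with 1 point per array, a line at the mean of 3 and axes that all span the same range. The 4 genes of the top row were higher with SAHA, RBM6 at the bottom right overlapped between groups, and the others were lower without overlap.

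Of the 4 RBMX family members 2 fell, RBMX by more than 2-fold. RBMX, also called hnRNP G, binds nascent transcripts and takes part in splicing and DNA repair. Its log2 values were 11.44, 11.37 and 11.42 in DMSO and 10.33, 10.45 and 10.30 in SAHA arrays. The groups were far apart beside their spread, and the change was -1.05 ± 0.06 (2.07-fold lower, adjusted p = 4.77e-06). RBMXL1, a copy of RBMX that arose through its mRNA, was at 9.19, 9.36 and 9.30 in DMSO and at 8.65, 8.47 and 8.53 in SAHA arrays. Its values did not overlap either, and it fell by 0.73 ± 0.07 (adjusted p = 7.47e-05). All 3 probe sets of RBMX are of the kind marked as possibly cross-hybridizing, and signal of its copies was not separated from its own. A pair of probe sets that name both RBMX and RBMXL1 gave -1.16 ± 0.07 and -1.05 ± 0.07. RBMXL2 (-0.19 ± 0.08) and RBMXL3 (-0.03 ± 0.11), dim members known from testis or little studied, did not pass. RBMXL2 passed without the first DMSO array (-0.28, adjusted p = 0.0101).

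All 3 RBMS genes fell. Their proteins bind single-stranded DNA and AU-rich RNA, and were first known from a control element of MYC. RBMS3 was at 7.12, 7.35 and 7.41 in DMSO and at 6.41, 6.12 and 6.12 in SAHA arrays. No SAHA value reached a DMSO value, and the change was -1.08 ± 0.11 (2.11-fold lower, adjusted p = 7.61e-05). RBMS2 was at 9.37, 9.31 and 9.29 in DMSO and at 8.50, 8.37 and 8.33 in SAHA arrays, a change of -0.92 ± 0.06 (adjusted p = 1.12e-05). RBMS1 fell by 0.62 ± 0.07 (adjusted p = 0.000152). In RBMS2 all 8 probe sets were called lower, at -0.50 to -0.92.

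Of the 7 members that act in the early spliceosome, where the branch site and the 3' splice site are recognised, 6 fell. RBM39, a relative of the splicing factor U2AF2, was at 11.53, 11.56 and 11.53 in DMSO and at 10.62, 10.65 and 10.74 in SAHA arrays. The spread within each group was far smaller than the change of -0.87 ± 0.06 (adjusted p = 7.46e-06). RBM5, which regulates splicing of apoptosis genes, was at 10.33, 10.34 and 10.41 in DMSO and at 9.47, 9.57 and 9.46 in SAHA arrays. It fell by 0.86 ± 0.06 (adjusted p = 8.99e-06). Falls were also called for RBM23, a relative of RBM39 (-0.64 ± 0.06), RBM10, a relative of RBM5 (-0.53 ± 0.06), and RBM17, which binds branch site factors (-0.41 ± 0.06). The call of RBM17 was lost when centred on poly-A spike-ins (-0.25, adjusted p = 0.0751). RBM25, a regulator of BCL2L1 splicing, fell by 0.21 ± 0.06 (adjusted p = 0.0269), the smallest fall among called members. That call was lost without any 1 of 5 arrays (adjusted p = 0.0516 to 0.0892) and kept without the first DMSO array. Its log2 fold change was -0.05 when centred on poly-A spike-ins (adjusted p = 0.776) and -0.10 when centred on ribosomal protein genes (adjusted p = 0.253).

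RBM6, the neighbour of RBM5 on chromosome 3 with 0 coding genes between them, did not pass. Its values were 9.01, 9.13 and 9.18 in DMSO and 9.16, 9.12 and 9.17 in SAHA arrays, and the groups overlapped (0.04 ± 0.06, adjusted p = 0.657). All 3 of its probe sets stayed within -0.06 and 0.06, while all 6 of RBM5 were called lower, at -0.82 to -0.92.

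Of the 5 members of the activated or the minor spliceosome, 4 fell. RBM22, which holds the catalytic RNA core, was at 10.12, 10.06 and 10.06 in DMSO and at 9.30, 9.12 and 9.26 in SAHA arrays. Its groups did not overlap and its 4 probe sets gave -0.83 to -1.01, with -0.85 ± 0.06 in the brightest (adjusted p = 1.73e-05). RBMX2, a subunit of the activated spliceosome, was at 8.91, 9.08 and 9.08 in DMSO and at 8.48, 8.38 and 8.36 in SAHA arrays, and fell by 0.62 ± 0.07 (adjusted p = 0.000138). RBM48, of the minor spliceosome, fell by 0.72 ± 0.10 (adjusted p = 0.000513). RBM41, which binds minor spliceosome RNA, fell by 0.36 ± 0.11 (adjusted p = 0.0253), a call lost without either of the first 2 DMSO or the first 2 SAHA arrays (adjusted p = 0.0610 to 0.0844). With the ACTB difference as a covariate it was at -0.14 (adjusted p = 0.589), and centred on poly-A spike-ins at -0.20 (adjusted p = 0.196). RBM42, of the tri-snRNP, was at 0.02 ± 0.07 (adjusted p = 0.825).

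Members that work in nuclear RNA decay and export fell in 3 of 4 cases. RBM33, an adaptor of mRNA export and demethylation, was at 8.25, 8.31 and 8.42 in DMSO and at 7.61, 7.504 and 7.47 in SAHA arrays, a change of -0.80 ± 0.07 (adjusted p = 3.12e-05). RBM26, a zinc finger protein of nuclear RNA decay, was at 8.60, 8.68 and 8.69 in DMSO and at 7.91, 7.76 and 8.06 in SAHA arrays, a change of -0.75 ± 0.08 (adjusted p = 0.000146). Both genes had no overlap between groups. RBM7, the RNA-binding subunit of the NEXT complex that feeds the nuclear exosome, fell by 0.52 ± 0.07 (adjusted p = 0.000305). RBM27, the relative of RBM26, was at 8.76, 8.80 and 8.74 in DMSO and at 8.78, 8.78 and 8.91 in SAHA arrays, and did not pass (0.06 ± 0.06, adjusted p = 0.496).

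All 5 members that mark mRNA, answer to cold or build paraspeckles fell, with changes of -0.34 to -0.63. RBM15B, which with RBM15 guides the m6A methyltransferase to its RNA, was at 9.10, 8.99 and 8.94 in DMSO and at 8.39, 8.33 and 8.41 in SAHA arrays. The groups were apart, with a change of -0.63 ± 0.06 (adjusted p = 7.36e-05). RBM14, a coactivator found in paraspeckles, was at 10.69, 10.82 and 10.63 in DMSO and at 10.25, 10.24 and 10.18 in SAHA arrays, a change of -0.49 ± 0.07 (adjusted p = 0.000390). The other falls were those of RBM15 (-0.41 ± 0.06), the cold-inducible RBM3 (-0.38 ± 0.07) and RBM8A, the Y14 subunit of the exon junction complex (-0.34 ± 0.06). These last 3 calls were lost when the arrays were centred on poly-A spike-ins, with log2 fold changes of -0.24, -0.21 and -0.17 and adjusted p = 0.0892, 0.137 and 0.243. Those of RBM15 (adjusted p = 0.0553) and RBM3 (adjusted p = 0.0720) were also lost with the ACTB difference as a covariate.

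The 3 nucleolar members fell modestly. RBM28, a ribosome assembly factor, was at 9.78, 9.79 and 9.76 in DMSO and at 9.32, 9.38 and 9.23 in SAHA arrays, a change of -0.47 ± 0.06 (adjusted p = 0.000287). RBM34 was at 3.999, 3.90 and 4.02 in DMSO and at 3.65, 3.52 and 3.56 in SAHA arrays, a change of -0.39 ± 0.06 (adjusted p = 0.00115) close to the floor. That call was lost when centred on poly-A spike-ins (-0.23, adjusted p = 0.105). Another probe set, which names RBM34 together with ARID4B, gave -0.51 ± 0.07 at a mean of 9.86. RBM19, of the small ribosomal subunit pathway, fell by 0.30 ± 0.08 (adjusted p = 0.0149), a call lost without the third DMSO array (-0.26, adjusted p = 0.0513). It was also lost when centred on poly-A spike-ins (-0.13, adjusted p = 0.386) or on ribosomal protein genes (-0.18, adjusted p = 0.0994).

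The 5 remaining members have roles less well defined. RBM12 was at 10.44, 10.43 and 10.42 in DMSO and at 9.63, 9.52 and 9.61 in SAHA arrays, a change of -0.84 ± 0.06 (adjusted p = 8.15e-06). RBM12B was at 8.02, 8.13 and 8.05 in DMSO and at 7.37, 7.30 and 7.40 in SAHA arrays, a change of -0.71 ± 0.06 (adjusted p = 2.64e-05). Neither gene's groups overlapped. RBM43 fell by 0.55 ± 0.11 at a mean of 4.55. RBM18 was at -0.05 ± 0.05 and RBM14-RBM4 at -0.24 ± 0.09 (adjusted p = 0.0649), and neither passed, though RBM14-RBM4 passed without the second DMSO array (-0.31, adjusted p = 0.0193) or the third SAHA array (-0.30, adjusted p = 0.0382).

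Probe sets of one gene mostly moved the same way. The 46 members have 144 probe sets, of which 100 were lower, 9 higher and 35 did not pass in limma's test over probe sets, where 24.1% of all probe sets were lower and 22.2% higher. None of the 38 members with several probe sets had them called in both directions, and in 18 every probe set was called lower. RBM39 had 7 probe sets, all lower, at -0.87 to -1.03, and RBM25 had 9, all lower, at -0.18 to -0.56. Every probe set of RBM3, RBM15, RBM22, RBM39 and RBMX is of a kind marked as shared or possibly cross-hybridizing. Signal of other transcripts was not separated from theirs. Without such probe sets 41 members were measured, of which 26 were lower and 4 higher.

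The size of the change did depend on the probe set in some members. In RBM47, 3 probe sets gave 1.29, 1.34 and 1.42, another 0.41 and the last 0.03 ± 0.11, which did not pass. That last probe set was at 4.26, 3.89 and 4.08 in DMSO arrays, brighter there than the one that stands for RBM47. In RBM19, RBM39, RBM43 and RBMS3 the probe set brightest in DMSO arrays fell more than the chosen one. In RBM43 the second probe set gave -1.32 ± 0.15, more than the -0.55 of the brightest, and in RBM19 the dimmer pair gave -0.63 and -0.70. In RBM33 the values were -0.80, -0.34 and -0.05 from the brightest to the dimmest, and the last did not pass. The other probe set of RBM15B gave -0.25 against -0.63, and those of RBM12B gave -0.47 and -0.17 against -0.71. Of the other 4 probe sets of RBM8A, 2 were called lower, at -0.29 and -0.51, and 2 of the other 4 of RBM15, at -0.38 and -0.31. In RBM14 the dimmest probe set (-0.05) did not pass, nor did 1 that names it with RBM14-RBM4 (-0.13). A probe set of RBM26 (-0.21) and another of RBM23 (-0.17) did not pass either. The other probe set of RBMS3 gave -1.45 ± 0.13 and that of RBM11 1.12 ± 0.19. For RBM4, a pair of probe sets that also name RBM14-RBM4 gave -0.08 ± 0.07 and -0.14 ± 0.08, while its own second probe set was called higher, at 0.27 ± 0.08 (adjusted p = 0.0241).

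**Figure D3:**
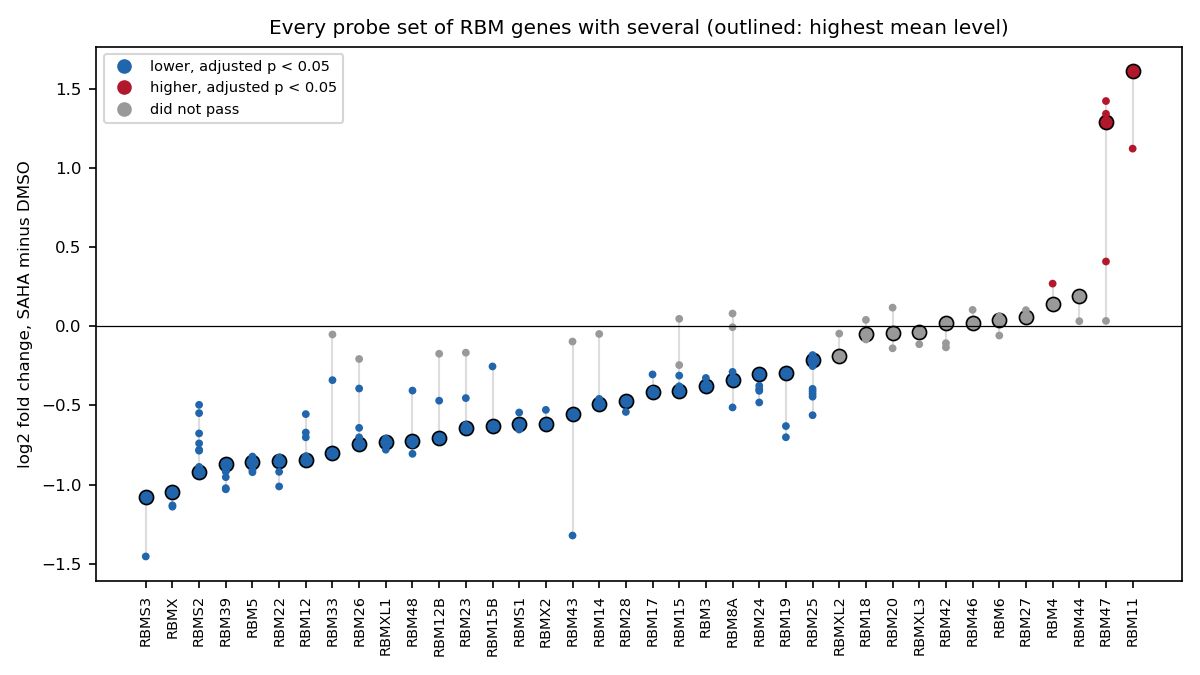
Log2 fold change, SAHA minus DMSO, of every probe set of the 38 RBM genes that have several, with 1 point per probe set, in the order of the brightest probe set (large outlined point). Colours give the call over all probe sets. No gene holds both blue and red points, and RBM43, RBM47 and RBM33 show the wide ranges given in the text.

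Related genes were then compared within each array, as a ratio that a constant shift of a whole array cannot alter. The 10 pairs examined were chosen after the values were seen, and each gave the smallest p that 3 arrays against 3 allow in a two-sided exact permutation test (p = 0.1, adjusted p = 0.1), so no pair passed. The log2 ratio of RBM5 to RBM6 was 1.32, 1.21 and 1.23 in DMSO and 0.32, 0.45 and 0.29 in SAHA arrays, a change of -0.90. That of RBM26 to RBM27 was -0.17, -0.12 and -0.05 in DMSO and -0.87, -1.02 and -0.86 in SAHA arrays, a change of -0.80. In both pairs the first gene fell while the second did not pass.

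RBM38 and RBM24 moved in opposite directions, each past the threshold in limma's test. Their log2 ratio was -1.22, -1.33 and -1.29 in DMSO and -0.45, -0.72 and -0.63 in SAHA arrays, a change of 0.68. The ratio of RBM4B to RBM4 changed by -0.66, with DMSO values spread from 0.85 to 1.70. It rests on an RBM4 probe set with a mean of 6.78. The brighter probe sets that also name RBM14-RBM4, with means of 10.67 and 10.14, changed by -0.08 and -0.14. Where both genes of a pair fell, the ratio moved less. It changed by -0.32 for RBMX over RBMXL1, by -0.33 for RBM5 over RBM10 and by 0.30 for RBMS1 over RBMS2. It changed by -0.23 for RBM39 over RBM23, by -0.22 for RBM15B over RBM15 and by -0.14 for RBM12 over RBM12B.

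**Figure D4:**
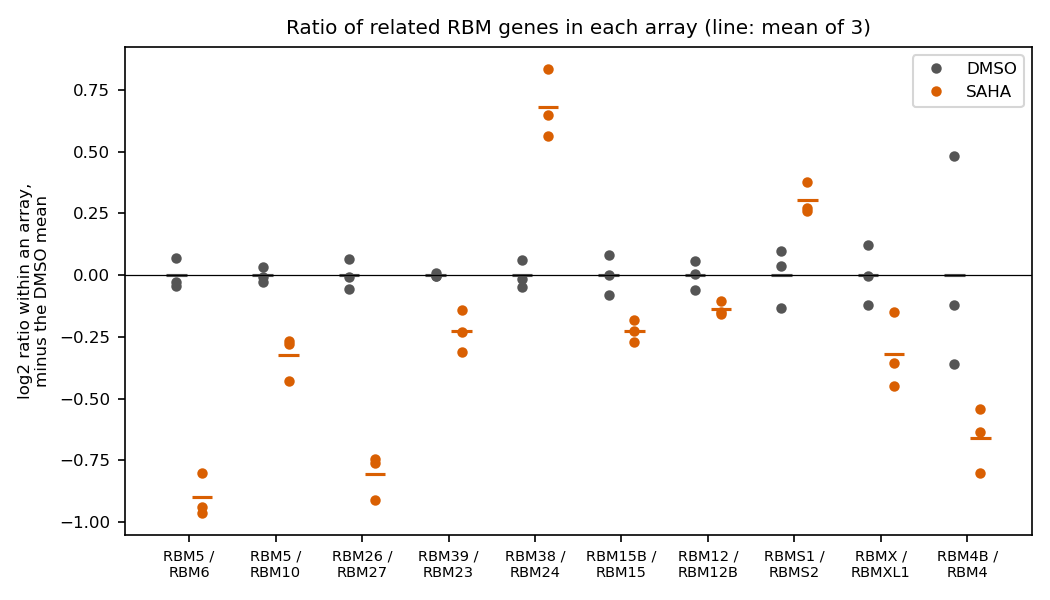
Log2 ratio of related RBM genes within each array, less the mean of the DMSO arrays, for 10 pairs, with 1 point per array and a line at the mean of 3. The SAHA points of RBM5 over RBM6 and RBM26 over RBM27 lie lowest, and those of RBM38 over RBM24 highest.

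Genes tied to the RBM proteins, as coworkers, relatives or reported targets, were also mostly lower. All are called partner genes here. Of 60 partner genes listed, 53 were measured, and 37 fell, 8 rose and 8 did not pass, with a median of -0.37. Most of them had a mean log2 value of at least 8, and of all genes at that level 40.8% were lower and 35.0% higher. The lists were not alike, with median log2 fold changes from -0.86 to 0.02. In splice site recognition, where RBM5, RBM10, RBM17 and RBM39 act, 11 of 12 measured genes fell and 1 rose. PUF60, which recognises the polypyrimidine tract, fell by 1.26 ± 0.05 (adjusted p = 1.23e-06) and the helicase DHX15 was at -0.77 ± 0.05 (adjusted p = 8.76e-06). U2AF2, the relative of RBM39, fell by 0.98 ± 0.10, and SUGP1, a G-patch protein that works with DHX15, rose by 0.35 ± 0.06. Of the 4 probe sets of SUGP1, 1 was called higher and 3 did not pass.

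Among the NEXT, PAXT and nuclear exosome genes, the partners of RBM7, RBM26 and RBM27, 5 of 6 fell and 0 rose. The exonuclease EXOSC10 was at 10.08, 10.15 and 10.19 in DMSO and at 8.92, 8.96 and 8.80 in SAHA arrays, a change of -1.25 ± 0.06 (adjusted p = 2.54e-06). ZCCHC8, which joins RBM7 in NEXT, fell by 1.02 ± 0.07 (adjusted p = 1.23e-05). ZFC3H1, the scaffold of PAXT, did not pass (0.22 ± 0.09, adjusted p = 0.0916).

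Of the 6 m6A writer genes beside RBM15 and RBM15B, 3 fell and 0 rose, with a median of -0.17. METTL3, the catalytic subunit, was at 10.80, 10.86 and 10.93 in DMSO and at 9.99, 9.93 and 9.87 in SAHA arrays, a change of -0.93 ± 0.06 (adjusted p = 8.26e-06). VIRMA, a scaffold of the complex, fell by 0.38 ± 0.07 (adjusted p = 0.00168), a call lost when centred on poly-A spike-ins (adjusted p = 0.135), while METTL14, the partner of METTL3, did not pass (0.09 ± 0.07).

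In the exon junction complex and nonsense-mediated decay, 5 of 8 measured genes fell and 2 rose. EIF4A3, the helicase that clamps the complex to RNA beside RBM8A, rose by 0.58 ± 0.05 (adjusted p = 3.84e-05), while RBM8A fell. UPF2, an adaptor of decay, fell by 0.69 ± 0.05 (adjusted p = 1.84e-05). MAGOH, the direct partner of RBM8A, did not pass (-0.03 ± 0.06), and its copy MAGOHB fell by 0.64 ± 0.08.

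Of the 7 measured neighbours of RBM22 and RBM48 in the catalytic spliceosome, 3 fell and 2 rose. Their median was 0.02, so this list was not mostly lower. CWC22 changed by -1.04 ± 0.07 (adjusted p = 9.87e-06) and CDC5L by -0.48 ± 0.06 (adjusted p = 0.000201). ARMC7, the partner of RBM48, did not pass (0.02 ± 0.08). Both measured paraspeckle genes fell, NONO at -0.34 ± 0.06 and PSPC1 at -0.24 ± 0.06, calls lost when centred on poly-A spike-ins (adjusted p = 0.215 and 0.622). Of the 6 relatives of RBM3, RBMX and RBM47, 4 fell and 1 rose. The relatives of RBM47 SYNCRIP (-0.78 ± 0.06, adjusted p = 1.93e-05) and HNRNPR (-0.77 ± 0.06, adjusted p = 1.35e-05) were lower, as was CIRBP, the other cold-inducible protein beside RBM3 (-0.22 ± 0.06, adjusted p = 0.0162).

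Of the 6 measured genes reported elsewhere as targets of RBM5, RBM10 or RBM38, 4 fell and 2 rose. CFLAR, the caspase 8 regulator, was at 8.55, 8.54 and 8.56 in DMSO and at 6.74, 6.66 and 6.71 in SAHA arrays, a change of -1.85 ± 0.05 (adjusted p = 2.51e-07). With the mean of its probe sets it was at -0.91. CDKN1A, which encodes p21, rose by 1.91 ± 0.05 (adjusted p = 2.08e-07). FAS, the death receptor, changed by -1.58 ± 0.11 (adjusted p = 1.03e-05) and MDM2 by -0.99 ± 0.08 (adjusted p = 1.85e-05). CASP2 changed by -0.25 ± 0.07 and NUMB, an inhibitor of Notch, by 0.56 ± 0.07. These probe sets measure transcripts at their 3' end, so exon choice, the step that RBM5 and RBM10 control, is not measured.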

How the data were processed

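Per the labels' protocols, total RNA was amplified by 3' in vitro transcription and labelled with biotin for Affymetrix arrays. Per the submitters' processing notes the authors used RMA, and the deposited values are on the log2 scale, 1 for each probe set. Its software is not given in the sources used here. RMA makes the arrays' distributions equal, so a shift common to most transcripts cannot be read. Gene names came from the platform annotation. All 46 RBM symbols matched a RefSeq table (GRCh38.p14) by Entrez identifier.

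Where several probe sets named a gene alone, the brightest on average across the 6 arrays stood for it. Differences were tested over all 18132 genes with limma 3.58.1 in R 4.3.3 (lmFit, eBayes), SAHA minus DMSO, two-sided, without covariates or a filter on level, at a Benjamini-Hochberg adjusted p of 0.05. Other probe sets were tested the same way over 49293 probe sets. The procedure was tested on simulated data. The number of arrays limits the precision.

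The RBM genes, role groups and partner lists were chosen with earlier results of these data known. Values by array are given for called genes changed by at least 2-fold, for the 2 smallest p-values of each role group and for other genes picked after their values were seen. In each partner list the 2 genes with the smallest p are named, plus CFLAR and CDKN1A, and the rest were picked later. Figures were drawn with matplotlib 3.10.9. Alternatives covered the probe set, scaling, level filter, threshold, variance model, replicate block and each array left out.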

Additional observations from a re-analysis of the deposited data

How the results depend on the processing

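Over the settings run, the RBM genes called lower numbered 22 to 31 and those called higher 2 to 5. Of the 35 members called, 25 kept call and direction in every setting that measured them. The other 10 were RBM3, RBM4B, RBM8A, RBM15, RBM17, RBM19, RBM24, RBM25, RBM34 and RBM41. Centring on poly-A spike-ins, added after seeing the data, moved the median of all genes to 0.16, and 22 members were then lower and 5 higher (median -0.25), where 14.1% of all genes were lower and 32.1% higher; 23 partner genes were lower. Centring on ribosomal protein genes moved the median of all genes to 0.11, with 28 members lower and 5 higher (median -0.30). With the ACTB difference as a covariate, also added later, 27 members were lower and 4 higher, and 3 partner genes were higher. A mean log2 value of at least 5 left 36 members, 29 lower and 2 higher (median -0.52). With the second brightest probe set, 31 were lower and 5 higher (median -0.39), and 5 partner genes were higher. Without 1 array at a time, 29 to 31 members were lower and 4 to 5 higher, with a median of -0.44 to -0.40, and 33 to 36 partner genes were lower and 7 to 9 higher. Over probe sets 94 to 99 were then lower and 8 to 10 higher. The causes of these shifts were not tested. With the replicate number as a block, 30 members were lower and 4 higher, and the call of RBM41 was lost (adjusted p = 0.0622). The block changed no other member's call. Same-numbered samples did not deviate together (correlations -0.13, -0.07 and -0.04), which gives no sign of pairing but cannot exclude it. Groups of 3 arrays limit the precision, and members near the floor of the scale carry the least signal over background.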
